A study of Homo sapiens with 4 samples.

Results

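The 10 human globin genes HBA1, HBA2, HBZ, HBM and HBQ1 of the alpha-like cluster on chromosome 16 and HBB, HBD, HBG1, HBG2 and HBE1 of the beta-like cluster on chromosome 11 were taken by symbol from the 50229 gene names in the table. They fell on 6 of its 64873 entries, and 1 of these, a second row of HBA1, was set aside because its mean count was the lower of the 2 rows. K562 is an erythroleukemia cell line, and all 4 libraries came from K562-U2AF1_S34F cells, which overexpress the S34F mutant of the splicing factor U2AF1. In 2 libraries the cells had received the vehicle DMSO, and in the other 2 they had received SF1-8, a small molecule against the U2AF homology motif domain of U2AF1, at 30 µM for 48 h. RNA was ribosome-depleted total RNA, and the question here was whether the globin RNAs differed between SF1-8 and DMSO. Cells with unmutated U2AF1 were not analysed here, so every value below holds for cells that carry the mutant. The labels do not say whether the libraries of a group were separate cultures, so the p-values measure the spread between these samples, which may be technical.

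Hemoglobin is built from alpha-like and beta-like globin chains, each holding heme. The genes of each cluster are used in turn during development: HBZ and HBE1 encode the embryonic zeta and epsilon chains, HBG1 and HBG2 the fetal gamma chains, and HBB and HBD the adult beta and delta chains, while HBA1 and HBA2 encode the alpha chain from fetal life on. HBM and HBQ1 encode the mu and theta chains, which are minor members of the alpha-like cluster. K562 cells are known for embryonic and fetal globins and for little or no adult beta-globin.

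Several of these genes are near copies of each other, which bears on how reads can be assigned to them. In the GENCODE 29 transcripts, the coding sequences of HBA1 and HBA2 were both 426 bases long and identical. Those of HBG1 and HBG2 were both 441 bases long and 99.5% identical, with the substitutions C227T and C410G. In each of these the HBG1 base is first, positions are counted from the A of the start codon, and the HBG2 base is last. The stretches around both positions are given here because they hold the coding bases at which the annotated HBG1 and HBG2 transcripts differ, with the differing base in capitals. The alleles of these cells were not examined.
HBG1 around position 227: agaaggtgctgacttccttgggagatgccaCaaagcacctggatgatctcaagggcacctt
HBG2 around position 227: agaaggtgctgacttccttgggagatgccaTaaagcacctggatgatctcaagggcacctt
HBG1 around position 410: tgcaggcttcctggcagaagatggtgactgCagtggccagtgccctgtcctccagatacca
HBG2 around position 410: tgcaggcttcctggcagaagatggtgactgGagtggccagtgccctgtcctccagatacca

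Of the 10 genes, 8 shared an entry with at least 1 other gene, and only HBB and HBQ1 had one of their own. HBA2 and HBA1 formed 1 entry on the plus strand of chr16:172876-177522 (hg38). Its 13 transcripts covered 1661 bases by the ratio of count to FPKM (fragments scaled for transcript length and library depth), against 1662 annotated exon bases. HBZ and HBM formed an entry with the pseudogene HBZP1 on the plus strand of chr16:142728-166764, and 70.2% of its 2089 bases lay in annotated exons of the 2 globin genes. HBQ1 had a plus-strand entry of its own at chr16:179887-181179, with 44.3% of its 1210 bases annotated. HBB stood alone on the minus strand of chr11:5225464-5229395.

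The other 4 beta-like genes, HBE1, HBG2, HBG1 and HBD, lay together in 1 minus-strand entry at chr11:5232678-5685074, called the long entry below. It also named the beta-like globin pseudogene HBBP1, the antiviral restriction factor gene TRIM5, the olfactory receptor gene OR51B5, the pseudogene OR51A10P and AC104389. The entry spanned 452.397 kb and held 52 transcripts, of which 12 were assembled from the reads. The length behind its FPKM was 44009 bases. Annotated exons of its 4 globin genes made up 10.5% of that length, and annotated exons of all its named genes 43.8%. In GENCODE 29 the gene models of HBG2 and HBE1 themselves reach 252.416 kb and 237.308 kb through alternative upstream exons, and a read-through gene, AC104389.4, spans 424.043 kb. No deposited column separates epsilon, gamma and delta globin, so the gamma share of beta-like globin was not formed.

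**Figure D1:**
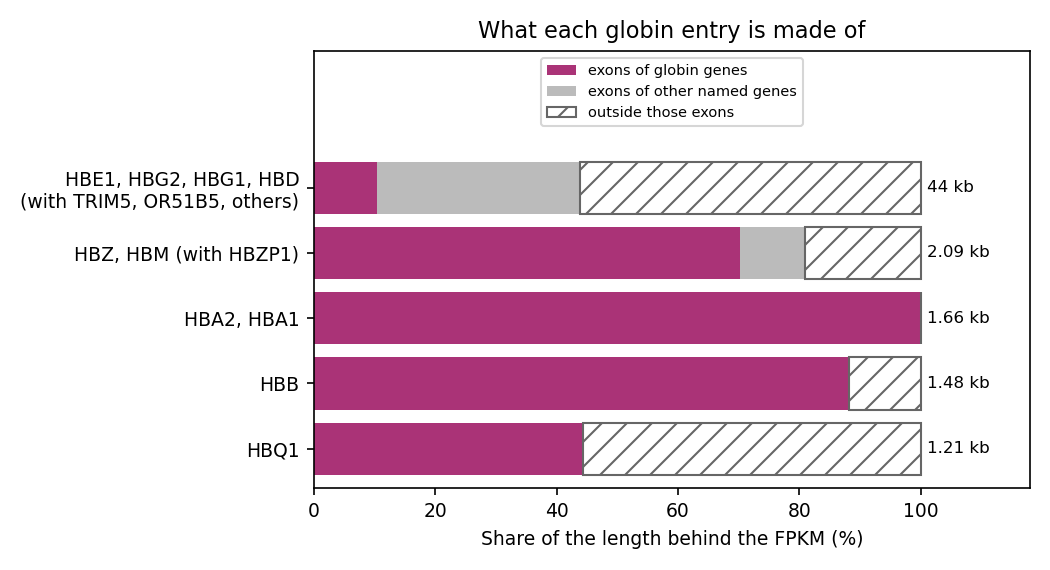
Each bar splits the length behind an entry's FPKM, in percent, into annotated exons of globin genes, annotated exons of the other genes it names, and the remainder, with the length in kb at its end. Globin exons make up 10.5% of the long beta-like entry and all of the HBA2 and HBA1 entry, and the HBB length rests on counts of no more than 8.

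On the scale per length, the alpha-globin entry was the highest of the 5. The FPKM of the HBA2 and HBA1 entry was 86.7 and 80.9 in the libraries DMSO 1 and DMSO 2, and 76.2 and 79.4 in the libraries SF1-8 1 and SF1-8 2. The long beta-like entry followed, with an FPKM of 33.3, 29.3, 27.5 and 27.8 in the same order of libraries. The HBZ and HBM entry had an FPKM of 19.8, 22.0, 20.7 and 18.03, and the HBQ1 entry of 5.85, 6.98, 6.09 and 6.77. HBB was lowest, with 0.0415 in DMSO 1, 0.0689 in SF1-8 1 and 0.0618 in SF1-8 2, and was listed at 0 in DMSO 2. The ranges of neighbours in this order did not overlap over the 4 libraries.

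By estimated counts the order was another. The long entry had 84727 and 104473 counts in the DMSO libraries and 101316 and 99009 in the SF1-8 libraries, and its mean ranked 17 among 62778 named entries. Its mean FPKM of 29.5 ranked 854. The HBA2 and HBA1 entry had 8329, 10877, 10594 and 10660 counts, which placed it at rank 1113 by mean count and at rank 236 by mean FPKM. If all counts of the long entry had lain evenly on the annotated exons of HBE1, HBG2, HBG1 and HBD, their joint FPKM would have been 318.1, 280.2, 262.8 and 266.0. This calculated value is 9.56 times the listed FPKM and lies above the alpha-globin FPKM of each library, while the listed value lies below it, and counts on fewer of these exons would give a higher value still. The order of alpha and beta-like globin RNA in these cells is therefore not fixed by the table.

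HBB, the adult beta-globin gene, had 4 counts in DMSO 1 and 0 in DMSO 2, against 8 and 7 in the SF1-8 libraries. Both SF1-8 counts were the higher ones, but all 4 were close to 0. Because a count here is not a single read, no limit is given for the count of 0. These counts were under the filter on low values, so HBB was not tested, and no fold change is given. The globins outside the clusters were also at low levels. Myoglobin (MB) had at most 4 counts and an FPKM of 0.0305 or less, cytoglobin (CYGB, in an entry with AC015802) between 0 and 50 counts and an FPKM of 0.153 or less, and neuroglobin (NGB) 0 counts in each of the 4 libraries.

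**Figure D2:**
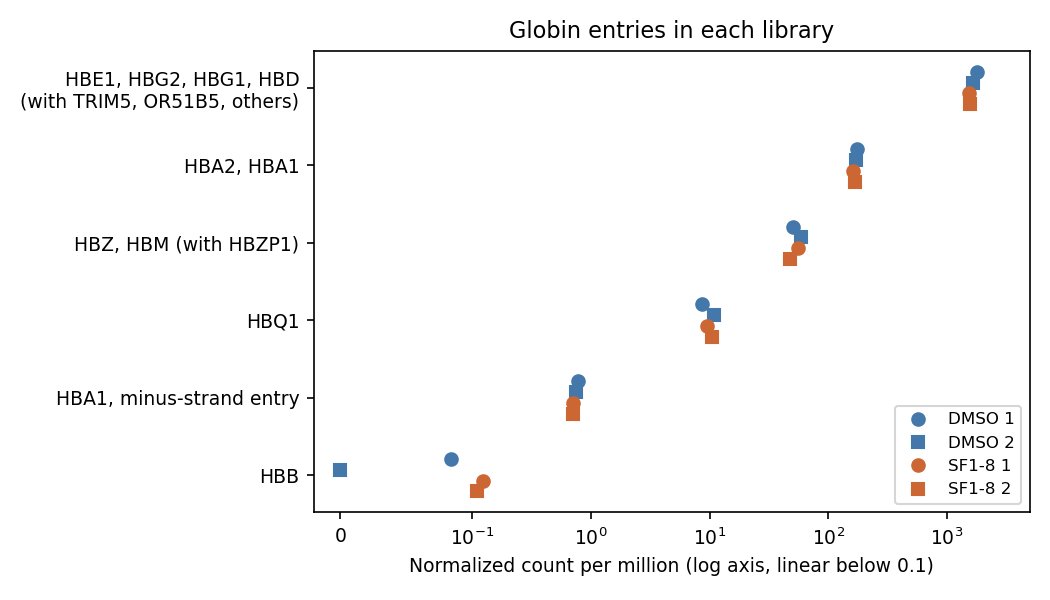
Normalized CPM (counts scaled for library depth) of the 6 globin entries in each library are shown on an axis that is logarithmic above 0.1 and linear below it. Circles are replicate 1 and squares replicate 2, with DMSO in blue and SF1-8 in orange. Levels run from at most 0.122 for HBB to at least 1547 for the long beta-like entry. The SF1-8 points lie close to the DMSO points in the 4 tested entries other than the second row of HBA1.

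With the second row of HBA1 set aside, 4 globin entries could be tested. None of these 4 passed the threshold for a difference between SF1-8 and DMSO. By edgeR's quasi-likelihood test, 0 of 4 had a Benjamini-Hochberg adjusted p under 0.05, and 0 of 4 an unadjusted p under 0.05. Over all 26167 entries tested, 0.042% passed the adjusted threshold and 4.33% the unadjusted one. DESeq2 called 0 of 5 at the adjusted and 0 of 5 at the unadjusted threshold, with HBB included. Over all entries it called 143 of 29519 at the adjusted threshold, and its unadjusted share was not formed. The median log2 fold change of the 4 entries was -0.083, beside -0.011 over all entries tested.

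The HBA2 and HBA1 entry was at 175.1 and 172.6 normalized CPM in the DMSO libraries and at 161.8 and 167.3 in the SF1-8 libraries. Both SF1-8 libraries lay below both DMSO libraries. Its log2 fold change was -0.079 (SE 0.0676), with a 95% interval from -0.25 to 0.093 and an edgeR adjusted p of 0.970. A fall of 16.0% and a rise of 6.66% thus both lie within the precision of 2 libraries per group.

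The long entry with HBE1, HBG2, HBG1 and HBD had 1781 and 1658 normalized CPM with DMSO and 1547 and 1554 with SF1-8. The SF1-8 libraries were again the lower ones, and they lay much closer to each other (SD 4.60, n = 2) than the DMSO libraries did (SD 87.3, n = 2). The log2 fold change was -0.149 (SE 0.0606, 95% interval -0.30 to 0.0053), a difference of -9.81%, with an unadjusted p of 0.0558 and an adjusted p of 0.970 by edgeR. DESeq2 gave an unadjusted p of 0.195. The log2 fold change was -0.097 without DMSO replicate 1 and -0.19 without DMSO replicate 2. Without SF1-8 replicate 1 it was -0.14, and without SF1-8 replicate 2 it was -0.15. Ranked by the edgeR p from all 4 libraries, the long entry stood at place 1281 of the 26167 entries. Because globin exons are a minor part of its length, this value cannot be given to any 1 of its genes.

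The HBZ and HBM entry and the HBQ1 entry did not separate the groups. Normalized CPM of HBZ and HBM were 50.4 and 58.9 with DMSO and 55.2 and 47.8 with SF1-8, so that the lowest and the next to highest values were both from SF1-8. The log2 fold change was -0.087 (SE 0.126, 95% interval -0.41 to 0.23; edgeR adjusted p 0.970), and it turned to 0.036 without DMSO replicate 2 and to 0.018 without SF1-8 replicate 2. HBQ1 had 8.60 and 10.9 with DMSO and 9.44 and 10.4 with SF1-8, both SF1-8 values between the DMSO values. Its log2 fold change was 0.028 (SE 0.180, 95% interval -0.43 to 0.49; edgeR adjusted p 0.993), and its sign flipped when library size alone set the scale, to -0.013.

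In 2 of the 4 tested entries the groups did not overlap, in both with SF1-8 below. Over all entries tested, 35.5% did not overlap and 18.1% had both SF1-8 libraries below both DMSO libraries. With 4 entries, the count of 2 cannot be set apart from these shares.

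**Figure D3:**
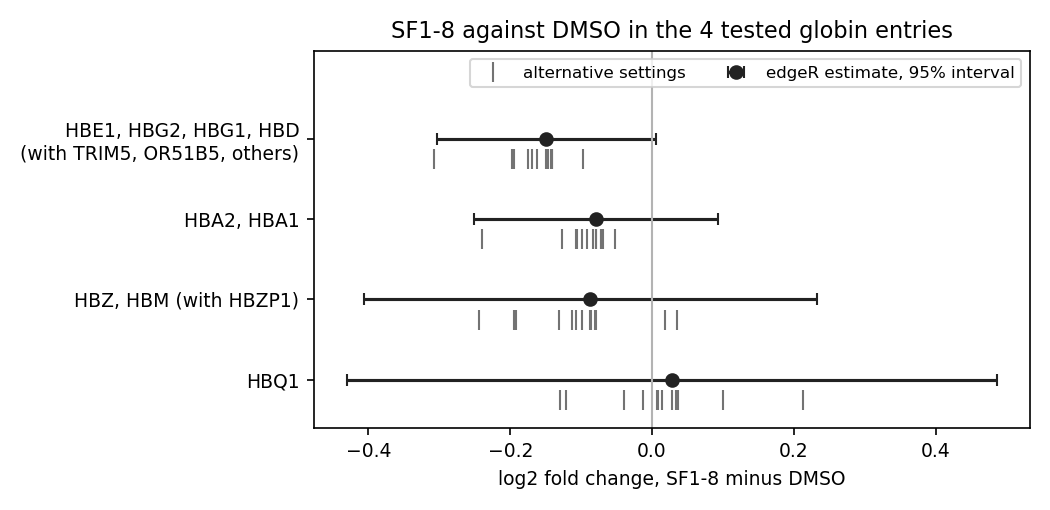
Points are edgeR log2 fold changes of SF1-8 minus DMSO for the 4 tested globin entries, bars are their 95% intervals, and grey ticks are the same value under 13 alternative settings. All 4 intervals include 0, and the ticks of the HBZ and HBM entry and of HBQ1 lie on both sides of it.

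The second row of HBA1 lay on the minus strand of chr16:173452-177535, opposite to HBA1 and HBA2, and held 1 assembled transcript of about 275 bases. It had 37, 47, 46 and 45 counts, which is below 1 normalized CPM in each library. Its log2 fold change was -0.11 (SE 0.390, edgeR adjusted p 0.989). The SF1-8 values of this row both lay below its DMSO values, as in 18.1% of all entries tested. The labels do not say whether the counting used strand, so reads from this row and from the genes opposite to it cannot be told apart here.

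The globin entries together held 0.211% and 0.187% of the counts on named entries with DMSO and 0.173% and 0.177% with SF1-8. The means were 0.199% ± 0.0176 (SD, n = 2) and 0.175% ± 0.0031 (SD, n = 2). Both SF1-8 values were lower, and the two-sided exact permutation test over the 4 libraries gave p = 0.333, the smallest value that 2 libraries per group allow. The long entry made up 87.2% to 88.4% of these counts and the HBA2 and HBA1 entry 8.69% to 9.40%, so the share follows mostly the long entry. Globin exons are 10.5% of the length of the long entry, which also names TRIM5, OR51B5 and others. The part of its counts that came from globin RNA is therefore not known.

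The ratio of alpha-like to beta-like FPKM was 3.37 and 3.75 for the DMSO libraries, and 3.73 and 3.74 for the SF1-8 libraries. Both SF1-8 values lay between the DMSO values (exact permutation p = 1, two-sided). On estimated counts, which are not divided by length, the ratio was 0.131 to 0.146. Neither scale gives the ratio of chains.

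The neighbours of the alpha-like cluster had main rows apart from the globin genes. NPRL3, whose introns hold the distal enhancers of the alpha-globin genes, had a log2 fold change of -0.14 (SE 0.114). The log2 fold change of LUC7L was -0.22, that of FAM234A -0.11, that of MPG -0.035 and that of RHBDF1 -0.29 in their main rows. Of these 5 genes, 0 passed the edgeR adjusted or unadjusted threshold, against 0.042% and 4.33% of all entries tested. Both SF1-8 libraries lay below both DMSO libraries in RHBDF1 and in the main row of LUC7L, as in 18.1% of all entries tested. Another LUC7L row had both SF1-8 libraries above (log2 fold change 0.46, SE 0.323), as in 17.3%. In its remaining row the groups overlapped (-0.15, SE 0.231). BGLT3, a noncoding RNA gene beside the gamma-globin genes, had 8.87 and 5.19 normalized CPM with DMSO and 4.69 and 5.76 with SF1-8, with overlapping groups. HBAP1 was not among the table's names, and HBZP1 and HBBP1 had no rows other than the shared ones. A plus-strand row of AC104389 at chr11:5249368-5254771, opposite to the gamma-globin genes, had an FPKM of 36.4, 60.5, 36.5 and 56.4. Its 2 lower values came from replicate 1 of each group and its 2 higher ones from replicate 2.

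The span of the long entry also held 19 separate rows of olfactory receptor genes and pseudogenes, a family read mainly in olfactory neurons. Of these, 13 (68.4%) had at least 10 counts in each of the 4 libraries, against 42 of 829 olfactory receptor rows elsewhere (5.07%). The 13 rows were the ones inside the annotated gene model of HBE1, and 0 of the 6 rows beyond its far end reached that count. Of the 13, 7 were on the strand of the long entry. OR51B4, named here after its values were seen, was the highest, at 13.8 and 11.9 FPKM in the DMSO libraries and 12.2 and 13.7 in the SF1-8 libraries. Whether these rows hold transcripts of their own or parts of longer globin-cluster transcripts was not tested.

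**Figure D4:**
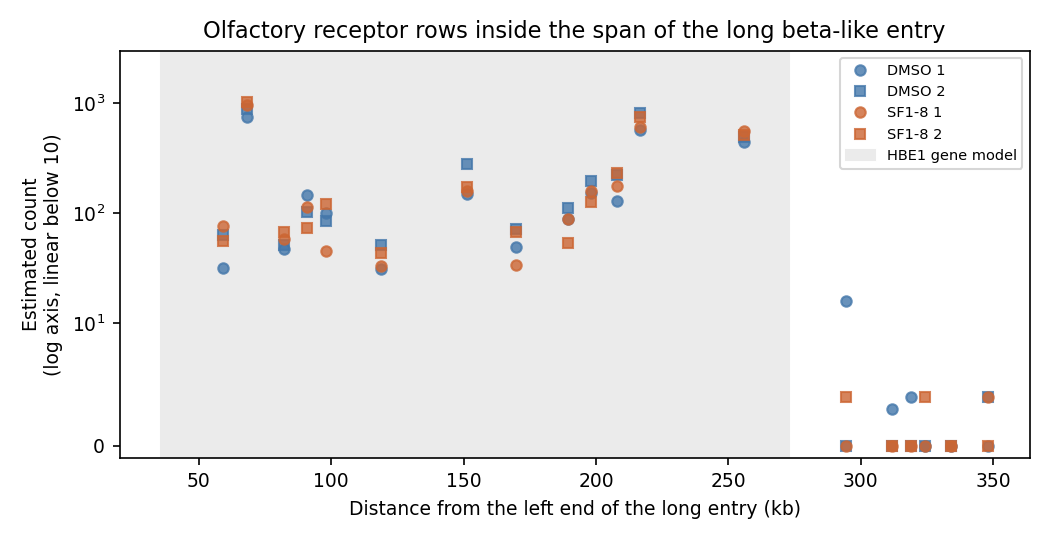
Estimated counts of the 19 olfactory receptor rows are plotted against their distance in kb from the left end of the long entry, on an axis that is logarithmic above 10. The 13 rows within the grey span of the HBE1 gene model have at least 10 counts in each library, and the 6 rows to its right have counts from 0 to 16.

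Genes that set globin expression were measured beside the globin genes themselves. The list held 32 genes, of which 31 were tested: 0 passed the edgeR adjusted threshold (against 0.042% of all entries tested), 1 (against 4.33% of all entries tested) had an unadjusted p under 0.05, 15 had a lower and 16 a higher value with SF1-8, and the median log2 fold change was 0.0027. DESeq2 likewise called 0 at the adjusted threshold (against 143 of 29519 entries). It called 1 at the unadjusted threshold, for which its share over all entries was not formed. KLF1, the erythroid activator of adult beta-globin, had 75.1 and 83.8 normalized CPM with DMSO and 78.7 and 76.4 with SF1-8. GATA1, the master erythroid factor, had 137.8 and 151.5 with DMSO and 144.7 and 143.6 with SF1-8. In both genes the SF1-8 values lay between the DMSO values.

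The repressors of gamma-globin differed greatly in level. BCL11A, which silences the fetal genes in adult red cells, had 8 counts in DMSO 1 and 0 in the other 3 libraries, and was not tested. ZBTB7A, the other main silencer, was well measured at 67.5 and 72.3 normalized CPM with DMSO and 69.5 and 62.8 with SF1-8 (log2 fold change -0.078, SE 0.0950). LIN28B and IGF2BP1, RNA-binding proteins of the fetal program, had log2 fold changes of 0.032 and 0.068. AHSP, the chaperone of free alpha-globin, stayed between 0.508 and 0.733 normalized CPM in the 4 libraries.

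The 3 regulators with the smallest unadjusted p were NFIA, ZNF410 and HDAC1. NFIA, a factor that promotes the erythroid fate, measured 82.1 and 91.5 normalized CPM in the DMSO libraries against 68.6 and 66.3 in the SF1-8 libraries. Its log2 fold change was -0.36 (SE 0.0909), with an edgeR unadjusted p of 0.00961 and an adjusted p of 0.970. ZNF410, which represses gamma-globin through CHD4, shared its entry with PTGR2 and AC005520, and that entry had a log2 fold change of 0.24 (SE 0.115). HDAC1, a histone deacetylase of the repressor complex, had 0.17 (SE 0.107). Neither of the last 2 passed the unadjusted threshold, although in each the SF1-8 libraries were the 2 highest, as in 17.3% of all entries tested.

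Heme synthesis supplies the group that every globin chain carries, and none of the genes listed for it passed the adjusted threshold. The list also holds genes of heme transport and breakdown, which enter the counts and the median below. All 15 listed genes were tested: 0 passed the edgeR adjusted threshold (against 0.042% of all entries tested), 1 (against 4.33% of all entries tested) had an unadjusted p under 0.05, 10 had a lower and 5 a higher value with SF1-8, and the median log2 fold change was -0.021. DESeq2 also called 0 at the adjusted threshold (against 143 of 29519 entries). It called 1 at the unadjusted threshold, again without a share over all entries to set beside it. ALAS2, the erythroid form of the first enzyme, had 27.7 and 25.1 normalized CPM with DMSO and 25.6 and 23.8 with SF1-8.

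TMEM14C, which moves heme precursors across the inner mitochondrial membrane, shared its entry with TMEM14B, AL024498 and SYCP2L. It measured 180.8 and 194.0 normalized CPM in the DMSO libraries against 243.0 and 237.5 in the SF1-8 libraries. The log2 fold change was 0.36 (SE 0.0717), with an edgeR unadjusted p of 0.00379 and an adjusted p of 0.755. SLC25A38, the mitochondrial glycine carrier, came next with -0.13 (SE 0.128), and FECH, which inserts iron into the porphyrin ring, had 0.28 (SE 0.276).

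**Figure D5:**
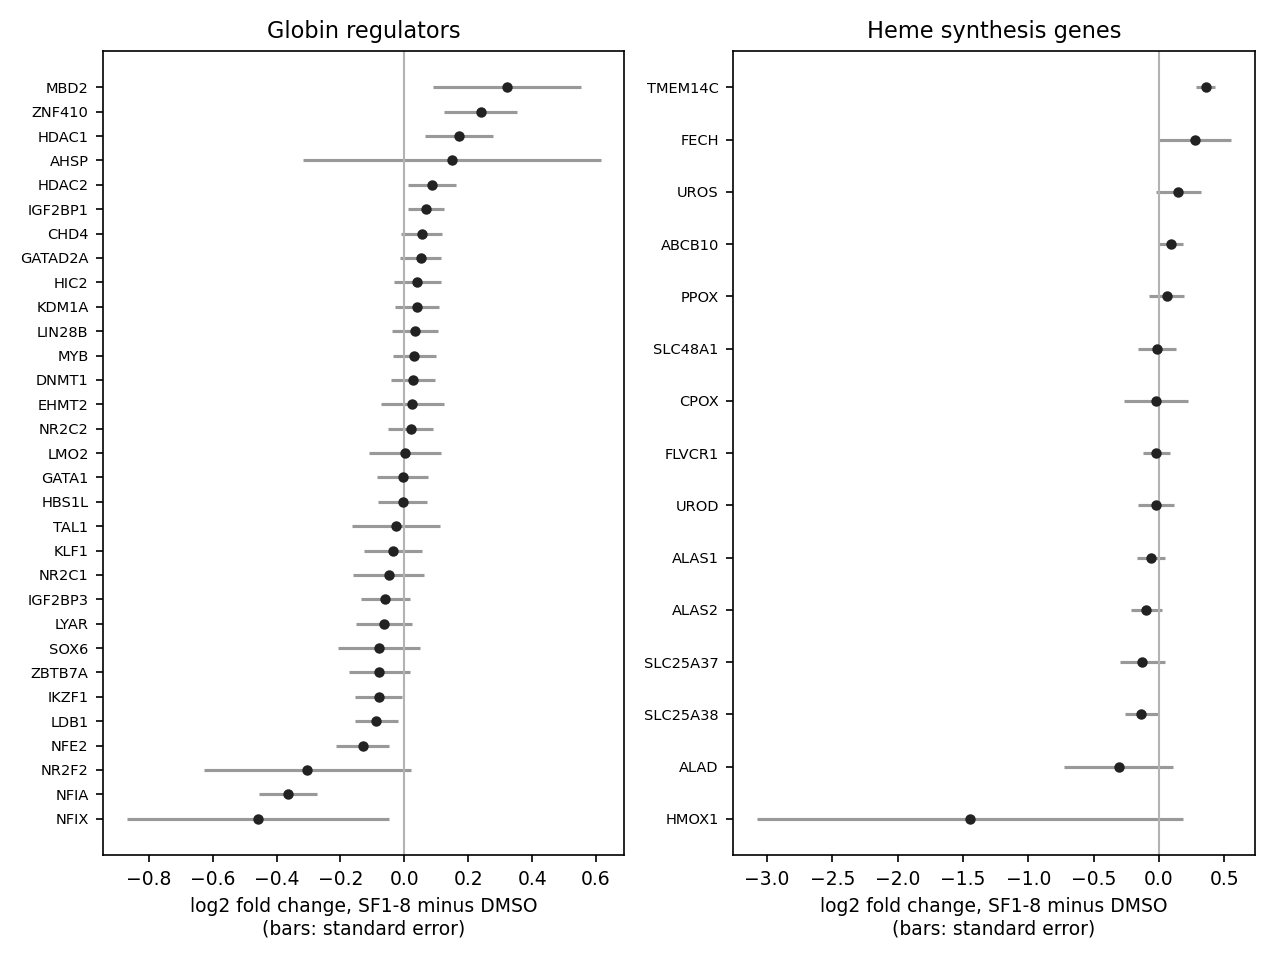
Points are edgeR log2 fold changes of SF1-8 minus DMSO for the 31 tested globin regulators (left) and the 15 genes of the heme synthesis list (right). Bars are their standard errors. NFIA lies at -0.36 and TMEM14C at 0.36, and 0 of the genes shown passed the adjusted threshold.

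The label of an erythroleukemia line was set against marker genes. Summed FPKM of 13 erythroid markers was 279.4, 277.9, 259.7 and 278.2, and 10 of the 13 had a mean FPKM of at least 1. SLC4A1, EPB42 and AHSP were the low ones. Megakaryocytic markers summed to between 1.44 and 1.86, with GP9, PF4, PPBP and VWF at 0 in every library. Myeloid markers summed to between 32.0 and 44.1, most of it on an entry that merges CD68 with EIF4A1, with MPO and ELANE at 0.

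Markers of stromal cells, a type that a cell line should lack, had a lower sum in both SF1-8 libraries. Their summed FPKM was 13.3 and 7.94 in the DMSO libraries and 5.94 and 4.26 in the SF1-8 libraries. Most of the SF1-8 sums lay on the row that PDGFRA shares with FIP1L1, at 3.33, 3.22, 3.48 and 3.67 FPKM, and the 7 genes with rows of their own, a sum formed after the values were seen, came to 9.93 and 4.72 FPKM in the DMSO libraries and 2.46 and 0.594 in the SF1-8 libraries. In 6 of the 8 genes both SF1-8 libraries lay below both DMSO libraries, and 5 of the 8 had an unadjusted p under 0.05, with 0 of 8 past the adjusted threshold by edgeR. Over all entries tested these shares were 18.1%, 4.33% and 0.042%. Among those 5, DCN, LUM and PDGFRB were near the floor, with at most 62, 27 and 27 counts in a library. The row of PDGFRA had both SF1-8 libraries above both DMSO libraries, as in 17.3% of all entries tested. THY1 overlapped, at 1.16 and 0.714 normalized CPM with DMSO and 1.73 and 0.345 with SF1-8. The paper already reports a set of collagen genes as down-regulated by the treatment in these cells, with COL1A1, COL1A2 and COL3A1 among them. The marker list was chosen with earlier results of these data known. Its counts therefore only describe the listed genes, and the shares over all entries are not an independent test of them. COL1A2, a collagen gene and the 1 marker gene that DESeq2 called, had 28.6 and 17.1 normalized CPM in the DMSO libraries and 10.2 and 5.57 in the SF1-8 libraries. Whether the stromal values bear at all on those of the HBA2 and HBA1 entry and of the long entry was not tested. In bulk RNA, fewer cells of a type and less RNA per cell cannot be told apart.

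The entries most like the alpha-globin entry over the 4 libraries were YBX1, ACCS and a shared entry of ATR and AC109992. Their distances from it were 0.0106, 0.0120 and 0.0126 (Euclidean, on log2 CPM centred on each entry's mean), the smallest among 26166 entries. With 4 libraries, this only describes a like pattern of small differences.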

How the data were processed

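The RNA of 4 libraries was compared, 2 per group, as mapped from the sample labels. Per the labels, reads were handled with cutadapt, FastQC, Bowtie2, HISAT2 and StringTie on hg38, with no versions or strand setting given. The deposited table holds, per entry of a merged assembly, an estimated count and an FPKM in each library. The deposited FPKM values are scaled by the authors for length and depth, with 0.0001 standing for 0. The deposited estimated counts are whole numbers without normalization, but 4 was the commonest value above 0, so a count is not 1 read and no counting intervals were formed. Total counts were 45522905 to 67554610, and rRNA entries held 10.9% to 14.0%. The 2095 unnamed entries (0.358% to 0.421% of counts) were left out.

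Counts were tested with edgeR 4.0.16 (quasi-likelihood, TMM, filterByExpr, Benjamini-Hochberg) in R 4.3.3, which was checked on simulated counts. The normalized CPM were computed from the counts with TMM factors of 0.973 to 1.05. DESeq2 1.42.0, limma 3.58.1 on log2 values with a pseudocount of 1 or 0.1, no filter, no TMM, counts divided by 4, the replicate block and each library left out were alternatives. Each symbol was taken at its row with the highest mean count. Lengths were derived from count over FPKM and set against GENCODE 29 exons of GRCh38. For 4950 entries with several transcripts, all in GENCODE 29, the ratio to the exon union had a median of 1.00. The genes named are the 10 globin genes, genes sharing their rows, cluster neighbours, other globins, the 3 regulators and 3 heme genes with the smallest p, and KLF1, GATA1, BCL11A, ZBTB7A, AHSP and ALAS2, with the 3 entries nearest in pattern to the alpha-globin entry; LIN28B, IGF2BP1, OR51B4 and the marker genes given by name, COL1A2 among them, were added after their values were seen. The members and lists were chosen with earlier results of these data known. The planned gamma share was not formed, because HBG1 and HBG2 share their entry with HBE1 and HBD. Of the heme synthesis list, 1 gene is not reported here.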

Additional observations from a re-analysis of the deposited data

How the results depend on the processing

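Of the globin entries, 0 passed the adjusted threshold under each of the 13 alternatives, as did 0 of the regulators and 0 of the heme genes under each of their 12. The log2 fold change of the HBA2 and HBA1 entry ranged from -0.24 to -0.052 and that of the long beta-like entry from -0.31 to -0.097, always below 0. Both lower ends came from limma on log2(TPM + 1), a scale that moved the median of all entries to -0.13. The next lowest values were -0.13 and -0.20, both without TMM. HBZ and HBM ranged from -0.19 to 0.036 with 1 library left out. HBQ1 was -0.013 without TMM, -0.12 with limma on log2(TPM + 1), the scale with the moved median, and -0.13 to 0.21 with 1 library left out. The log2 ratio of alpha-like to beta-like FPKM, SF1-8 over DMSO, was 0.070, and -0.0041 to 0.15 with 1 library left out, below 0 only without DMSO replicate 1. That of the globin share was -0.19 and stayed between -0.28 and -0.095. The count over all entries, 11 by edgeR, was 143 with DESeq2, 31 without the filter, 1 with limma on log2(TPM + 1), 0 with limma on log2(FPKM + 1) or log2(FPKM + 0.1), and 0 to 30 with 1 library left out. Among the marker genes DESeq2 called 1, COL1A2, against 0 by edgeR. The cause of these shifts was not tested. Same-numbered libraries did not deviate together when all entries were taken at once (r = -0.0046 over 26167 entries). This correlation cannot exclude a pairing that touches only part of the entries. With the replicate block edgeR called 0 over all entries and 0 globin entries. Summing HBA1 with HBA2 and HBG1 with HBG2 gave no separate value, since they are already merged. HBB, with 0 to 8 counts, was under the filter, and 8 of the 10 genes had no entry of their own.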
